A study of Mus musculus with 5 samples.

Results

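The 36 genes described here build the machinery that copies DNA and the enzymes that supply its nucleotides. They were taken as a list of gene symbols by function, with earlier results of these data known, from the 28692 genes of each table. The 8 origin licensing genes are Mcm2, Mcm3, Mcm4, Mcm5, Mcm6, Mcm7, Cdc6 and Cdt1, and the 3 origin firing genes are Cdc45, Gins1 and Gins2. The 4 polymerase genes are Pola1, Prim1, Pold1 and Pole, the 5 clamp, loader and single-strand binding genes are Pcna, Rfc3, Rfc4, Rfc5 and Rpa2, and the 2 flap and nick processing genes are Fen1 and Lig1. The 5 nucleotide supply genes are Tyms, Rrm1, Rrm2, Tk1 and Dut. The 4 genes used in copying chromatin are Chaf1a, Chaf1b, Uhrf1 and Slbp, the 2 of the fork checkpoint are Clspn and Tipin, and the 3 of S-phase entry are Ccne1, Ccne2 and E2f1. All 36 were found once in the tables by identifier and lie on 15 chromosomes, with at most 6 on 1 chromosome (5).

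Live CD45+ cells, the blood-derived cells of a tissue, were profiled by droplet-based single-cell RNA sequencing. They came from subcutaneous tumors of the mouse melanoma line B16-F10, grown from 500000 implanted cells and taken at day 11. Each of the 5 treatments had 1 library: PBS (the vehicle), anti-PD1 (an antibody to the inhibitory receptor PD-1), an IL15 superagonist, the IL15 superagonist and anti-PD1 given together (combination), and a fusion protein of anti-PD1 and IL15 (fusion). The treatment label of the combination names IL15 where its title names the superagonist, and the protocol places treatment after resection of the tumor while the titles place it before the sort. The sources used here do not state the mouse strain, dose, schedule or number of mice per library. With 1 library per treatment no test between treatments was possible, and every comparison is between 2 libraries.

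A dividing cell licenses its origins in G1 phase by loading the MCM helicase with the help of Cdc6 and Cdt1. At the start of S phase Cdc45 and the GINS complex switch the helicase on, primase and the polymerases copy the strands, and the sliding clamp PCNA, loaded by replication factor C, holds the polymerases on DNA. Ribonucleotide reductase, thymidylate synthase, thymidine kinase and dUTPase set the supply and purity of the deoxynucleotides. Many of these genes are known targets of E2F factors, and resting lymphocytes hold them at low levels until they are driven to divide by antigen and cytokines such as IL-2 and IL-15.

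The promoters of these genes are shown first as a description, and a relation of their letters to the levels that follow was not tested. Windows of 250 bases before to 50 after the start were matched in RefSeq (GRCm38.p6, the build of the files) for 30 of the 36 genes. Ccne2, Gins1, Gins2, Mcm4, Pole and Tipin were unmatched. The E2F letters TTTGGCGC, TTTCGCGC, TTTCCCGC or TTTGCCGC, read on both strands, occurred in 12 of the 30 (40.0%) against 704 of 27025 genes (2.60%). They occurred in 9 of 33 matched genes of a further replication list and in 1 of 18 matched genes of a mitosis list. The letters CCAAT, read on both strands, occurred in 17 of the 30 (56.7%), in 41.1% of all genes and in 16 of the 18 mitosis genes (88.9%). Matches of one E2F letter string may overlap those of another on the other strand. The 3 stretches below are the parts of matched windows that hold the letters upstream of the annotated gene, at Mcm5 (chr8:75109346-75109508, + strand), Mcm6 (chr1:128359706-128359825, − strand) and Pola1 (chrX:93632156-93632303, − strand). Capitals mark the E2F letters on either strand.
Mcm5: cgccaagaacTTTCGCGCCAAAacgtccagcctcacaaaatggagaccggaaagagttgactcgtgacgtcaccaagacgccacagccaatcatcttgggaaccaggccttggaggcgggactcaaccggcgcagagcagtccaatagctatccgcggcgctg
Mcm6: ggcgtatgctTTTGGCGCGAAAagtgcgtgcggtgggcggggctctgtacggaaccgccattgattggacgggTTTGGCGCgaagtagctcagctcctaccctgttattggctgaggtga
Pola1: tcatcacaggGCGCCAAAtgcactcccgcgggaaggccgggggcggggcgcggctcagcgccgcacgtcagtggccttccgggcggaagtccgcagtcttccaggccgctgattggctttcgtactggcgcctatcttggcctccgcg
In Mcm5 and Mcm6 a pair of matches on opposite strands overlapped to form 1 longer capital run, and Mcm6 held a further match closer to its start. A match of letters is a description of the sequence and not a measured binding site.

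Values for the 5 libraries are listed in a fixed order throughout: PBS, anti-PD1, IL15 superagonist, combination, fusion. The libraries held 6015, 7350, 6779, 8577 and 8747 barcodes in this order, with median depths of 4279 to 7851 unique molecular identifiers (UMIs, counted RNA molecules), highest in fusion. Cells were sorted into classes by marker genes: CD8 T cells (Cd3 and Cd8 genes), regulatory T cells (Treg, Foxp3), NK cells (Ncr1, Klrb1c and others), macrophages (C1q genes) and dendritic cells (Flt3, Xcr1 and others). Cd8a stood at 629 to 794 CPM (UMIs of a gene per 1000000 UMIs of its class and library) in the CD8 T cells, Foxp3 at 417 to 640 CPM in the Treg cells, and Ncr1 at 225 to 377 CPM in the NK cells. The classes held 971, 1134, 2019, 3270 and 6575 CD8 T cells, 139, 139, 49, 133 and 15 Treg cells, 297, 579, 1060, 883 and 220 NK cells, 1102, 1433, 717, 789 and 336 macrophages, and 526, 384, 181, 203 and 56 dendritic cells. Treg cells of the IL15 superagonist and fusion libraries were under 50 and entered no comparison. Any 2 libraries shared 61 to 104 barcodes. Of the 13969 CD8 T cells, 654 passed with a single Cd8a or Cd8b1 UMI. Intervals given below are exact 95% intervals (Poisson for levels, conditional binomial for ratios, Clopper-Pearson for shares) and cover counting error only.

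In CD8 T cells the 36 genes together were lowest in the IL15 superagonist and combination libraries and highest in fusion. Their summed levels were 2469 CPM (2430 to 2508), 2494 (2461 to 2528), 1497 (1475 to 1519), 1730 (1712 to 1747) and 3432 (3418 to 3446) in library order. The sum was 1.65-fold lower in IL15 superagonist than in PBS (1.61 to 1.69), 1.43-fold lower in combination (1.40 to 1.45) and 1.39-fold higher in fusion (1.37 to 1.41), while anti-PD1 stood at 1.01-fold (0.990 to 1.03). Between fusion and combination the sum differed 1.98-fold (1.96 to 2.01). Mitosis genes, a separate list of 21 such as Mki67 and Top2a, were likewise lowest in IL15 superagonist and highest in fusion, at 1739, 1760, 945, 1117 and 2754 CPM.

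**Figure D1:**
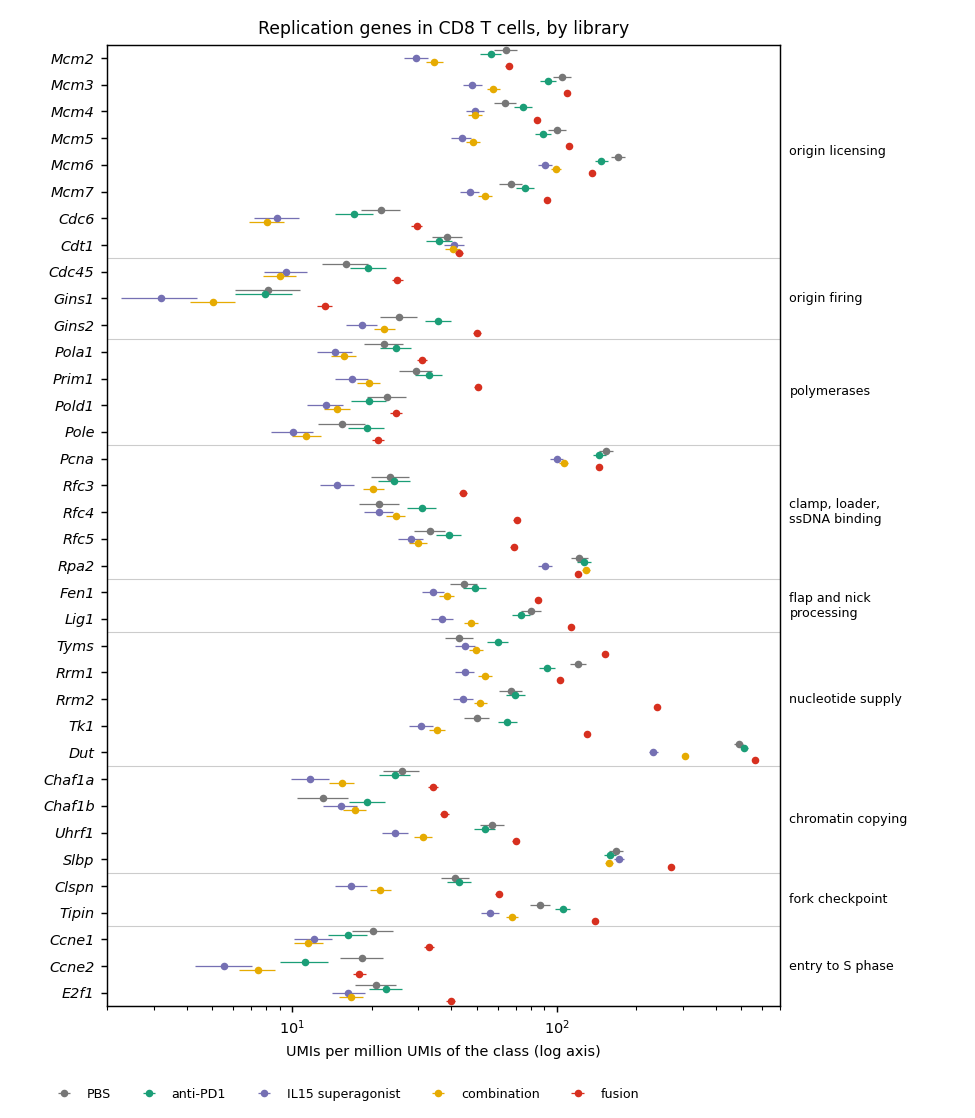
Level of each of the 36 genes in CD8 T cells, as CPM on a log axis, grouped by role, with 1 point per library and exact Poisson 95% intervals. The fusion points lie to the right for most genes, by the widest margin for Rrm2 (240 CPM) and Tyms (152 CPM). Cdt1 runs from 36.1 to 42.9 CPM and Rpa2 from 90.5 to 129 CPM over the libraries.

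Among licensing genes, Mcm6, a subunit of the replicative helicase, stood at 171, 148, 90.7, 99.7 and 136 CPM in library order. It was the lowest of all 36 genes in fusion relative to PBS, 1.25-fold lower (1.17 to 1.33). Mcm3, another helicase subunit, stood at 105, 93.2, 48.1, 57.7 and 110 CPM. Both helicase genes were therefore lower in IL15 superagonist and combination, but neither was higher in fusion than in PBS by 1.5-fold. In fusion against PBS, 0 of the 8 licensing genes were past 1.5-fold in either direction, where 17.0% of all genes were that much higher and 29.9% lower. Cdc6, which loads the helicase, stood at 21.7, 17.2, 8.80, 8.02 and 29.5 CPM and was 2.71-fold lower in combination than in PBS (2.15 to 3.41). Cdt1, its partner in loading, did not follow the others: it stood at 38.6, 36.1, 41.0, 40.4 and 42.9 CPM. Fusion was 1.06-fold above the combination (0.982 to 1.14). The lowest library was anti-PD1, whose interval (32.2 to 40.4 CPM) lay below that of fusion (41.3 to 44.5 CPM).

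For origin firing, Gins2 of the GINS complex stood at 25.4, 35.7, 18.3, 22.3 and 49.9 CPM, lowest in IL15 superagonist and highest in fusion. Gins1, of the same complex, was the scarcest of the 36 at 8.14, 7.88, 3.18, 5.02 and 13.3 CPM. It was the 1 gene of the 36 past 1.5-fold between combination and IL15 superagonist, 1.58-fold higher in combination (1.08 to 2.35). That ratio came from 109 and 38 UMIs, and 2.90% of all genes were at least that fold higher in combination, a share near that of the list. Of the polymerase genes, the primase subunit Prim1 stood at 29.4, 32.9, 16.8, 19.5 and 50.3 CPM. All 4 polymerase genes were at least 1.5-fold lower in IL15 superagonist than in PBS (19.6% of all genes were), with Pola1 and Pole just past that fold, and Prim1 alone among them was at least 1.5-fold higher in fusion (1.71-fold, 1.48 to 2).

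Pcna, the sliding clamp, stood at 154, 145, 100.2, 106 and 144 CPM, so that fusion did not exceed PBS. Its pseudogene Pcna-ps2, which could share reads with it, stood at 1.26 to 5.58 CPM over the libraries' CD8 T cells. The loader gene Rfc4 showed another pattern, at 21.4, 30.9, 21.3, 24.6 and 70.6 CPM, and was 3.30-fold higher in fusion than in PBS (2.78 to 3.95). Rpa2, which coats single strands, stood at 122, 127, 90.5, 129 and 121 CPM and was the 1 gene below the combination in fusion, at a ratio within 1.5-fold. Lig1, the ligase that seals the lagging strand, stood at 80.2, 73.7, 36.9, 47.6 and 113 CPM, low in IL15 superagonist and combination and high in fusion.

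In fusion against PBS the widest differences were those of the nucleotide supply genes Rrm2 and Tyms. Dut, the dUTPase that keeps uracil out of DNA, was the most abundant member at 488, 513, 232, 307 and 565 CPM. Rrm2, the small and cell-cycle controlled subunit of ribonucleotide reductase, stood at 67.0, 69.9, 44.2, 51.5 and 240 CPM. It was 3.59-fold higher in fusion than in PBS (3.26 to 3.96) and 4.67-fold higher than in combination (4.39 to 4.96), the highest ratio of the list in both. Tyms, thymidylate synthase, stood at 42.8, 59.8, 45.1, 49.6 and 152 CPM and was 3.56-fold higher in fusion than in PBS (3.15 to 4.04). Unlike most members it was not lower in IL15 superagonist or combination than in PBS. Tk1, the salvage enzyme thymidine kinase, stood at 49.9, 65.1, 30.7, 35.4 and 131 CPM. Rrm1, the large subunit of ribonucleotide reductase, went the other way from Rrm2 in fusion: its levels of 120, 92.3, 44.9, 53.6 and 103 CPM placed fusion 1.17-fold below PBS (1.08 to 1.26).

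Of the chromatin genes, Slbp, which binds histone mRNA, stood at 168, 160, 172, 158 and 272 CPM, high in fusion and close together in the other 4 libraries. Chaf1b, a subunit of the histone chaperone CAF-1, stood at 13.1, 19.3, 15.2, 17.2 and 37.7 CPM. PBS was its lowest library, and Chaf1b had the highest ratio of the list in each of anti-PD1 (1.47-fold, 1.12 to 1.95), IL15 superagonist (1.17-fold, 0.893 to 1.53) and combination (1.32-fold, 1.03 to 1.69) against PBS. Those comparisons share the PBS library. Tipin of the fork checkpoint stood at 86.6, 106, 56.0, 68.0 and 139 CPM. E2f1, a transcription factor of S-phase entry, stood at 20.7, 22.7, 16.3, 16.7 and 39.8 CPM. Ccne2, cyclin E2, stood at 18.3, 11.2, 5.53, 7.42 and 17.9 CPM and was the lowest gene of the list in anti-PD1 (1.64-fold below PBS, 1.24 to 2.18) and in IL15 superagonist (3.32-fold, 2.43 to 4.56).

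Counted over the list, all 36 genes reached 20 UMIs over both libraries in every CD8 T comparison, the minimum for a ratio. Against PBS, anti-PD1 had 0 members at least 1.5-fold higher and 1 at least 1.5-fold lower, where 7.60% and 11.1% of all genes were past that fold. IL15 superagonist had 0 higher and 24 lower, against 14.3% and 19.6% of all genes, and a median log2 ratio of -0.68 beside -0.06 over all genes. Combination had 0 higher and 17 lower (11.6% and 19.3% of all genes), with a median of -0.52 beside -0.09. Fusion had 16 higher and 0 lower (17.0% and 29.9%), with a median of 0.49 beside -0.14. Between fusion and combination 32 members were higher and 0 lower (13.1% and 19.0%), with a median of 1.15 beside -0.08. Combination against IL15 superagonist had 1 higher and 0 lower (2.90% and 5.45%), with a median of 0.20. The all-gene median in fusion shows that total UMIs and the middle gene give scales that differ by 0.13 (log2). With anti-PD1 in place of PBS, 24 members were at least 1.5-fold lower in IL15 superagonist (11.0% of all genes), 20 lower in combination (10.1%) and 16 higher in fusion (11.4%). After thinning every cell to 2000 UMIs the combination median was -0.90 with 24 members lower (19.9% of all genes), and fusion against combination had a median of 1.71 with 34 higher (15.5%). Taking the mean over cells in place of summed UMIs gave fusion a median of 0.78 against PBS with 24 higher (2420 of 12099 genes). At 2-fold the counts were 12 lower in IL15 superagonist (8.54% of all genes), 4 lower in combination (7.75%), 6 higher in fusion (7.74%) and 22 higher in fusion against combination (6.25%).

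The further replication list of 42 genes, which are not among the 36, was mixed in the same cells. Against PBS it had 0 genes higher and 1 lower in anti-PD1, 2 and 17 in IL15 superagonist, 1 and 14 in combination, and 10 and 2 in fusion. Over all genes these shares were 7.60% and 11.1%, 14.3% and 19.6%, 11.6% and 19.3%, and 17.0% and 29.9%. It had 28 higher and 2 lower in fusion against combination (13.1% and 19.0% of all genes), and 0 in either direction in combination against IL15 superagonist (2.90% and 5.45%). Cdc7, the kinase that fires origins, stood at 20.6, 9.76, 5.78, 7.05 and 13.0 CPM, highest in PBS. Its partner Dbf4 stood at 47.9, 55.4, 78.9, 69.5 and 73.7 CPM, lowest in PBS. Samhd1, which breaks down deoxynucleotides, stood at 107, 141, 190, 170 and 72.4 CPM, so that it was highest in IL15 superagonist and lowest in fusion, the reverse of Rrm2. Asf1b, a histone chaperone, stood at 33.0, 47.7, 32.8, 36.02 and 126 CPM. Tk2, the mitochondrial thymidine kinase, stood at 10.8, 9.88, 9.88, 10.7 and 5.79 CPM and was the lowest of the further list in fusion against PBS, at a log2 ratio of -0.92. Other extremes among the 42 were Wdhd1 (23.8, 16.3, 9.13, 11.0 and 20.9 CPM), Chek1 (10.2, 7.88, 4.52, 3.92 and 10.2 CPM), Pold2 (22.7, 32.8, 28.5, 28.6 and 56.5 CPM), Pole2 (6.22, 9.29, 8.96, 9.08 and 15.2 CPM), Dscc1 (6.06, 6.70, 5.19, 4.28 and 14.4 CPM), Orc1 (10.5, 9.88, 4.44, 6.17 and 11.9 CPM) and Dctpp1 (99.1, 106, 59.5, 75.5 and 149 CPM).

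At equal depth, CD8 T cells with several replication UMIs were most frequent in fusion and least in IL15 superagonist. Each cell was thinned to 2000 UMIs, which left out 39 PBS and 3 IL15 superagonist CD8 T cells that were shallower. Cells with at least 5 UMIs of the 36 genes made up 26.5% (23.7 to 29.5), 26.2% (23.7 to 28.8), 9.77% (8.51 to 11.2), 11.2% (10.2 to 12.4) and 52.3% (51.1 to 53.5) of CD8 T cells in library order. Without thinning the shares were 53.7%, 54.1%, 35.4%, 43.6% and 79.98%, at median depths of 5248, 6028, 4440, 4902 and 8924 UMIs. Among cells at or above 5 UMIs the mean was 9.67, 9.70, 8.71, 9.08 and 9.92 UMIs, a value that the minimum of 5 itself holds up. As a background, neutrophil-gated cells, which do not divide, had 0 cells at or above 5 UMIs in each library. In anti-PD1 that was 0 of 52 cells (upper limit 6.85%) at a median depth of 3295 UMIs, and the other 4 libraries had 2 to 31 thinned neutrophils.

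**Figure D2:**
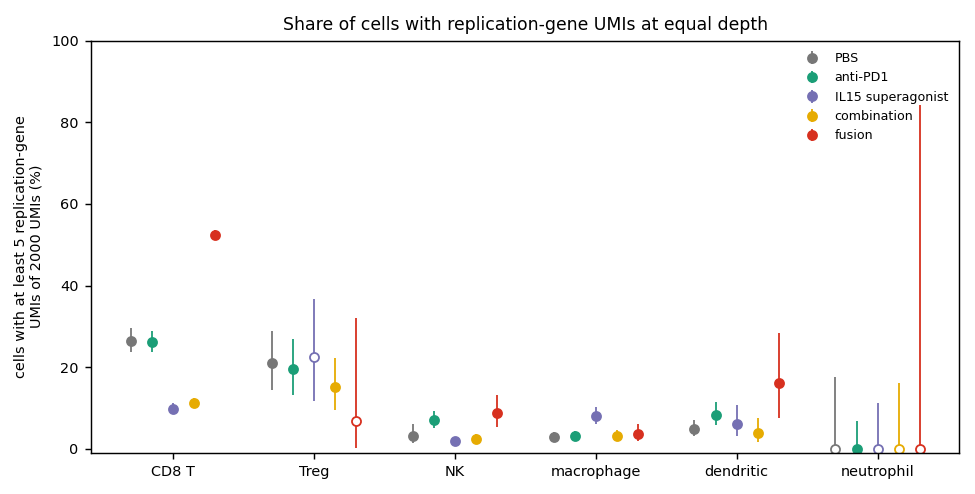
Percentage of cells with at least 5 UMIs of the 36 genes after thinning to 2000 UMIs per cell, by class and library, with exact Clopper-Pearson 95% intervals and open circles where a class had under 50 cells. CD8 T cells run from 9.77% in IL15 superagonist to 52.3% in fusion, and in macrophages the IL15 superagonist library is highest at 7.95%.

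Splitting CD8 T cells by the mitosis list gave the share of cells with mitosis UMIs and the level within each kind of cell. Cells with at least 2 mitosis UMIs of 2000 made up 32.3%, 31.5%, 11.4%, 13.9% and 54.7% in library order. Within them the 36 genes stood at 3267, 3356, 2788, 2927 and 3968 CPM, and in cells with 0 mitosis UMIs at 1126, 1005, 811, 845 and 1570 CPM. Fusion was highest and IL15 superagonist lowest in both kinds of cell, but the intervals of IL15 superagonist and combination overlapped. They were 2637 to 2945 and 2817 to 3041 CPM in cells with at least 2 mitosis UMIs. In cells with 0 they were 777 to 845 and 818 to 873 CPM. Over thinned cells the mean was 1.60-fold higher in fusion than in PBS. It was 1.39-fold higher among cells with 0 mitosis UMIs (1.30 to 1.49), 1.65-fold among cells with 1 (1.51 to 1.81) and 1.21-fold among cells with at least 2 (1.16 to 1.27). Moving only the shares of the 3 kinds of cell (0, 1, and at least 2 mitosis UMIs) from PBS to fusion, at PBS levels, gave 1.25-fold. For IL15 superagonist the mean was 1.78-fold lower than in PBS, 1.39-fold lower among cells with 0 mitosis UMIs, 1.61-fold lower among cells with 1 (1.44 to 1.79) and 1.17-fold lower among cells with at least 2, with 1.31-fold from the shares alone. A thinned cell with 0 mitosis UMIs may still be cycling, since a low level can be missed at 2000 UMIs.

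**Figure D3:**
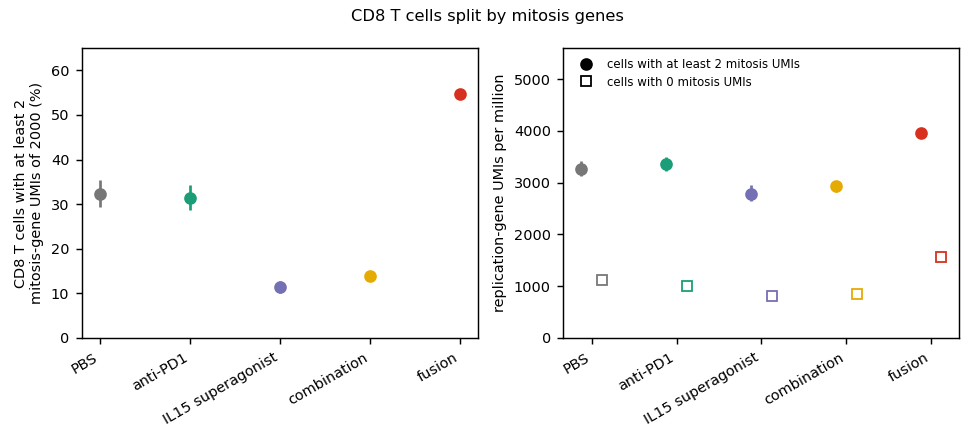
Left, percentage of CD8 T cells with at least 2 mitosis-list UMIs of 2000, by library. Right, summed CPM of the 36 replication genes in those cells (filled circles) and in cells with 0 mitosis UMIs (open squares), with exact 95% intervals. Fusion is highest in both kinds of cell, at 3968 CPM with and 1570 CPM without. IL15 superagonist is lowest, at 2788 and 811 CPM, with intervals that overlap those of combination.

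The members split differently between these kinds of cell. In fusion, the library with the most UMIs, Rrm2 stood 10.8-fold higher in cells with at least 2 mitosis UMIs than in cells with 0 (8.98 to 13.2). Next were Ccne1 (6.47-fold, 4.26 to 10.3), Clspn (5.93-fold, 4.51 to 7.94) and Tk1 (4.68-fold, 3.90 to 5.64), whose intervals overlap. At the other end were Mcm6 (1.30-fold, 1.15 to 1.46), Mcm2 (1.499-fold, 1.256 to 1.795), Rpa2 (1.55-fold, 1.37 to 1.76) and Cdt1 (1.57-fold, 1.27 to 1.96). In the other 4 libraries many members had few UMIs in cells without mitosis UMIs, and no order is given for them. In cells with 0 mitosis UMIs Rrm2 stood at 4.45, 5.43, 5.52, 5.42 and 29.8 CPM, the last in fusion from 115 UMIs. Cdt1 stood at 40.1, 31.7, 40.8, 42.4 and 29.5 CPM in those cells, from 36, 35, 111, 180 and 114 UMIs. Fusion was lowest and anti-PD1 close to it.

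The order of the other classes differed from that of CD8 T cells. Treg cells had levels near those of CD8 T cells, with sums of 2279 CPM in PBS, 1798 in anti-PD1 and 1988 in combination. Dut stood at 291, 186 and 250 CPM in those libraries, Slbp at 173, 152 and 161, and Pcna at 177, 107 and 143, each highest in PBS. Of 31 tested members 0 were at least 1.5-fold higher and 9 lower in anti-PD1 (11.7% and 16.6% of all genes), at a median of -0.26. The lowest was Mcm2, from 81.2 to 37.4 CPM (2.17-fold, 1.40 to 3.43), and the highest Tk1, from 52.8 to 79.4 CPM. In combination 0 of 32 were higher and 5 lower (15.3% and 15.6%), at a median of -0.19, with Cdc45 lowest (27.1 to 11.4 CPM) and Rpa2 highest (56.9 to 74.8 CPM). With anti-PD1 in place of PBS the combination median was 0.13, with 4 higher and 2 lower (12.9% and 9.18% of all genes). In the libraries below 50 Treg cells, the sums were 2341 CPM in IL15 superagonist and 3004 CPM in fusion, from 49 and 15 cells.

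NK cells had sums of 798, 1166, 791, 763 and 1454 CPM, so anti-PD1 and fusion stood above the other 3 libraries. Slbp stood at 164, 151, 188, 175 and 199 CPM, Dut at 59.7, 121, 56.8, 56.3 and 174, and Pcna at 79.9, 101, 65.7, 70.2 and 68.1. In anti-PD1 20 of 32 tested members were at least 1.5-fold higher and 0 lower than in PBS (13.3% and 14.9% of all genes), at a median of 0.74. In fusion 20 of 28 were higher and 1 lower (21.7% and 26.6%), at a median of 1.33. Rrm2 led both, at 4.04, 33.5, 7.28, 7.71 and 79.2 CPM, or 19.6-fold higher in fusion (7.39 to 73.4) than in PBS, where it had 4 UMIs. Cdt1 was lowest in both, at 42.5 CPM in PBS, 35.9 in anti-PD1 and 27.2 in fusion. The minimum of 20 UMIs was over both libraries, so members scarce in PBS could pass through the library where they were high. Clspn had 2 UMIs in PBS, 39 in anti-PD1 and 27 in fusion, and Tk1 had 5, 48 and 43. The tested NK members therefore favor those that were high in anti-PD1 or fusion, and the all-gene shares used the same minimum.

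The NK cells had median depths of 2577, 3247, 3642, 3948 and 3987 UMIs, which did not follow the order of the sums. The 10% of NK cells with the most UMIs held 56.9% of the members' UMIs in fusion and 49.8% in anti-PD1, against 32.2% in PBS, 23.3% in IL15 superagonist and 22.7% in combination. Of all UMIs these cells held 25.2%, 27.5%, 20.3%, 20.2% and 26.1% in library order. In CD8 T cells the deepest 10% held 35.9%, 37.0%, 55.9%, 56.3% and 25.2% of the members' UMIs in library order. In dendritic cells the deepest 10% held 55.8%, 43.5%, 39.1%, 54.9% and 21.0%. The part of depth in the NK values was not tested. At equal depth, cells with at least 5 UMIs made up 3.14% (1.36 to 6.09), 6.91% (4.98 to 9.29), 1.89% (1.16 to 2.91), 2.27% (1.39 to 3.48) and 8.64% (5.28 to 13.2). After thinning, the median over the 14 members that still reached 20 UMIs turned to -0.26 in fusion, and that over 18 members fell to 0.23 in anti-PD1. The macrophage and monocyte gene Lyz2 stood at 322 to 838 CPM in the NK gate, with C1qa at 6.81 to 30.3 CPM. The T-cell gene Cd3e stood there at 4.04, 1.22, 3.52, 4.63 and 10.2 CPM, highest in fusion. Their part in the result was not tested. IL15 superagonist had 4 of 27 tested members higher and 5 lower (17.3% and 21.3% of all genes), from Mcm2 (27.3 to 11.97 CPM) to Rpa2 (43.5 to 77.7 CPM). Combination also had 4 of 27 higher and 5 lower (16.5% and 19.6%), from Pola1 (10.1 to 3.60 CPM) to Rfc3 (4.04 to 10.5 CPM). Set against anti-PD1 instead, 25 of 32 members were lower in IL15 superagonist (14.2% of all genes) and 22 of 31 in combination (12.2%).

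In macrophages the IL15 superagonist library was the highest, where it was the lowest in CD8 T cells. The sums were 582, 544, 819, 546 and 565 CPM. Pcna stood at 110, 82.1, 107, 91.6 and 84.2 CPM and Slbp at 75.1, 69.2, 71.5, 75.2 and 84.2, neither highest in IL15 superagonist. Mcm6 was, at 30.5, 26.7, 43.5, 24.8 and 18.9 CPM. Of 36 tested members 25 were at least 1.5-fold higher in IL15 superagonist than in PBS and 0 lower (7.60% and 8.96% of all genes), at a median of 0.78. Rrm2 was highest, from 6.43 to 19.4 CPM (3.02-fold, 2.15 to 4.31), and Cdt1 lowest, from 27.6 to 20.5 CPM. Macrophages with at least 5 UMIs of 2000 made up 7.95% (6.08 to 10.2) there, and 2.97% (2.04 to 4.16), 3.21% (2.36 to 4.26), 3.17% (2.06 to 4.64) and 3.57% (1.86 to 6.16) in PBS, anti-PD1, combination and fusion. In the mitosis list 11 of 21 genes were higher (7.60% of all genes), at a median of 0.64. Median depth was 8079 UMIs in IL15 superagonist and 5626 in PBS, and thinning to 2000 UMIs left a median of 0.53 over 29 members, 13 of them at least 1.5-fold higher (9.23% of all genes). The monocyte gene Ly6c2 stood at 410, 534, 153, 344 and 329 CPM in the macrophage gate, lowest in IL15 superagonist, and C1qa, a macrophage gene, at 2095, 2174, 2521, 1984 and 2023 CPM, highest there. The T-cell genes Cd3e and Cd8a stood at 2.71 and 2.56 CPM in IL15 superagonist and at 1.64 and 0.547 CPM in PBS. Their part in the result was not tested.

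The other macrophage libraries differed little from PBS. Anti-PD1 had 0 members higher and 2 lower (6.35% and 12.1% of all genes), with Lig1 lowest (16.6 to 10.3 CPM) and Rpa2 highest (9.03 to 13.1 CPM). Combination had 1 higher and 1 lower (4.91% and 14.0%), with Prim1 lowest (5.61 to 3.43 CPM) and Ccne2 highest (1.78 to 3.58 CPM, from 13 and 24 UMIs). Fusion had 4 of 33 higher and 2 lower (7.29% and 20.7%), with Rfc3 lowest (7.52 to 4.43 CPM) and Tyms highest (6.29 to 12.1 CPM). The medians were 0.06, 0.00 and 0.08, while the medians over all genes were -0.08, -0.13 and -0.15.

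Dendritic cells were highest in fusion, from 56 cells. The sums were 749, 843, 680, 605 and 1237 CPM, with Slbp at 68.5, 72.0, 63.9, 68.7 and 137, Pcna at 92.4, 70.2, 47.6, 52.2 and 71.3, and Dut at 66.3, 74.6, 64.8, 51.8 and 112 CPM. Fusion had 23 of 34 tested members at least 1.5-fold higher and 0 lower than PBS (19.9% and 23.8% of all genes), at a median of 0.75. Rrm2 was again highest, at 20.6, 27.8, 16.8, 15.6 and 110 CPM (5.34-fold above PBS in fusion, 3.74 to 7.59), and Pcna was lowest. Cells with at least 5 UMIs of 2000 made up 4.81% (3.13 to 7.02), 8.33% (5.77 to 11.6), 6.08% (3.07 to 10.6), 3.94% (1.72 to 7.62) and 16.1% (7.62 to 28.3), the last being 9 of 56 cells. Thinning left 12 members with 20 UMIs in fusion against PBS, of which 10 were higher (24.0% of all genes), at a median of 1.39.

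Anti-PD1 had 4 of 35 dendritic members higher and 0 lower (11.5% and 11.0% of all genes), from Pcna to E2f1 (10.9 to 19.0 CPM). IL15 superagonist had 1 of 34 higher and 5 lower (16.9% and 15.5%), from Clspn (8.12 to 2.33 CPM) to Rfc5 (12.4 to 20.5 CPM). Combination had 1 of 34 higher and 9 lower (10.5% and 17.3%), from Ccne1 (7.11 to 0.916 CPM, 28 and 2 UMIs) to E2f1 (10.9 to 17.9 CPM). Melanoma genes (Mlana, Pmel, Dct and Tyrp1) summed to 89.6, 229, 634, 25.2 and 23.1 CPM in the dendritic gate. Taking out the 1 to 3 cells per library that carried them left at most 5.49 CPM and moved the members' sum in IL15 superagonist from 680 to 627 CPM and in fusion from 1237 to 1244 CPM.

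**Figure D4:**
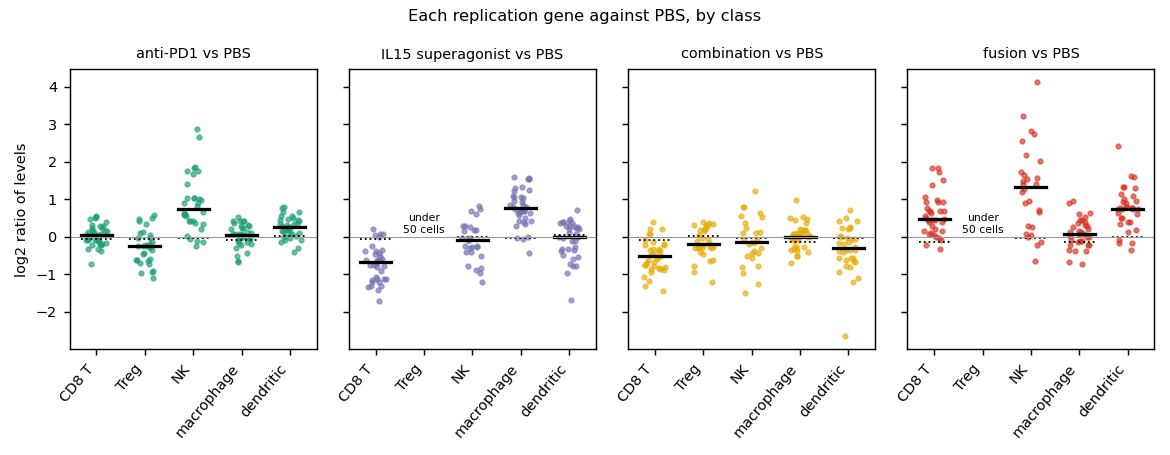
log2 ratio of each tested member against PBS in the 4 treated libraries, by class; 1 point per gene, a solid bar at the median of the members and a dotted bar at the median of all tested genes. The IL15 superagonist panel shows CD8 T cells below 0 (median -0.68) and macrophages above 0 (median 0.78), and the fusion panel shows macrophages near 0 (median 0.08).

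Rrm2 per Rrm1, the ratio of the small to the large subunit of one enzyme, was computed after the levels above were seen. In CD8 T cells it was 0.556 (0.492 to 0.628), 0.758 (0.680 to 0.844), 0.985 (0.872 to 1.11), 0.961 (0.885 to 1.04) and 2.34 (2.27 to 2.41) in library order. UMIs are counted near the 5′ end in this assay and were not divided by length, so the ratio compares libraries and not the subunits' absolute levels. IL15 superagonist and combination did not differ beyond their intervals, and PBS was lowest. In fusion it was also 2.33 (1.59 to 3.46) in NK and 2.38 (1.45 to 4.00) in dendritic cells, but 0.304 (0.165 to 0.530) in macrophages. PBS was the lowest library in each of the 5 classes, although the intervals of PBS and of at least 1 other library overlapped in every class but CD8 T cells. In fusion Rrm2 stood at 6.85 CPM in macrophages, 79.2 in NK cells and 110 in dendritic cells. The T-cell gene Cd3e stood at 8.86, 10.2 and 1.93 CPM in those gates, against 1.64, 4.04 and 0.762 CPM in PBS. CD8 T cells made up 77.3% of kept fusion cells, and the part of their free RNA in the other gates was not tested.

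**Figure D5:**
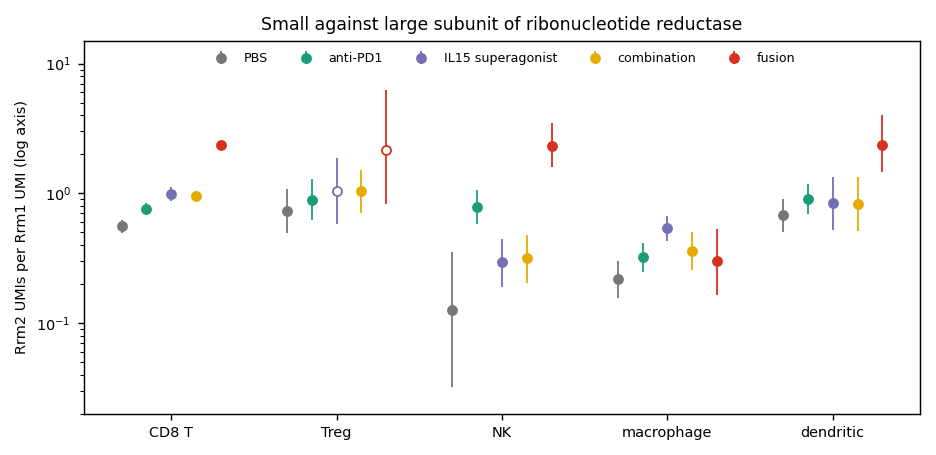
Rrm2 UMIs per Rrm1 UMI on a log axis, by class and library, with exact conditional 95% intervals and open circles where a class had under 50 cells. Fusion lies above 2 in CD8 T, NK and dendritic cells and at 0.304 in macrophages.

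Across classes, over the libraries with at least 50 cells of a class, 24 of the 36 genes had their highest median in CD8 T cells, 11 in Treg cells and 1, Slbp, in NK cells, where its median was 175 CPM beside 168 CPM in CD8 T cells. The Treg medians are over 3 libraries, and several genes differed little between their CD8 T and Treg medians, so the split between these classes is not sharp. Among them were Mcm4 (63.97 and 63.6 CPM), Rrm2 (66.9987 and 66.9264 CPM), Chaf1a (24.45 and 24.37 CPM) and Ccne1 (16.22 and 16.25 CPM). Each gene's level was correlated with the summed level of the other 35 over the 23 points of class and library with at least 50 cells. Mcm5 (Pearson r 0.96), Dut (0.96) and Mcm4 (0.95) were most like the rest, and E2f1 (0.33), Gins1 (0.39) and Cdt1 (0.49) least. The points share libraries and depth, so these values are a description. Over the classes with at least 50 cells, Cdc45 was lowest in combination in all 5, and Rfc5 and Slbp highest in fusion in all 4. In combination Cdc45 had 9 UMIs in Treg cells, 4 in NK cells, 16 in macrophages and 10 in dendritic cells. Its CD8 T interval there (7.77 to 10.3 CPM) overlapped that of IL15 superagonist (7.80 to 11.4 CPM), and its Treg rank is over 3 libraries. Of 7885 genes compared in the same way, combination was lowest in every class for 0.216% and fusion highest for 2.30%.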

How the data were processed

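The authors deposited 1 table of raw UMI counts per library (genes by barcodes), made with Cell Ranger 2.1.1 on mm10 per the submitters' processing notes; no source used here states the annotation release or barcode filter. Samples were grouped by the treatment in the labels, 1 per treatment. Cells were kept at 200 or more genes and up to 10% mitochondrial UMIs, and cells with markers of 2 lineages (T, B, myeloid; at least 2 genes and 3 UMIs each) were removed as probable doublets (141 to 297 per library); doublets within a lineage remain and no doublet caller was run. Classes were set by marker UMIs, and cells meeting 2 gates were left out (3 to 33 per library). UMIs were summed per class and library and given as CPM; lowest depths per barcode were 1751 to 2671 UMIs.

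Ratios were log2 after adding 0.5 to each count, for genes with at least 20 UMIs over both libraries and classes with at least 50 cells in both. Python 3.11.15, numpy 2.4.6, scipy 1.17.1 and pandas 2.3.3 were used, and the counting was checked on simulated data. Named genes were, in CD8 T cells, the most abundant of each role (2 for licensing and nucleotide supply) and the 2 highest and 2 lowest ratios per comparison; in other classes the 3 most abundant and the extreme ratios. Rfc4, Cdc6, Gins1 and the Rrm2 to Rrm1 ratio were also singled out after values were seen, as were the splits by depth and by mitosis UMIs within comparisons. The members and lists were chosen with earlier results of these data known. Alternatives changed the gates, mixed and tumor-marked cells, mitochondrial limit, depth, scaling, weighting, filter, pseudocount, fold and reference library.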

Additional observations from a re-analysis of the deposited data

Results flagged for a closer look

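The median log2 ratio of the replication genes in IL15 superagonist against PBS had opposite signs in CD8 T cells and in macrophages, at -0.68 and 0.78. In CD8 T cells 24 of 36 members were at least 1.5-fold lower and 0 higher, and in macrophages 25 of 36 were at least 1.5-fold higher and 0 lower. The difference between the classes was not tested, since each treatment had 1 library. The comparisons share both libraries. The signs held under the alternatives run for both classes: the CD8 T median ranged from -1.01 to -0.62 and the macrophage median from 0.53 to 0.88. Rrm2 stood at 67.0 CPM in PBS and 44.2 CPM in IL15 superagonist in CD8 T cells, and at 6.43 and 19.4 CPM in macrophages, and Cdt1 did not share the direction of the list in either class, at 38.6 and 41.0 CPM in CD8 T cells and 27.6 and 20.5 CPM in macrophages.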

How the results depend on the processing

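Of 212 medians recomputed under alternatives, 190 stayed within a confidence interval of the original median, 21 moved outside it and 1 reversed. That interval was set from the ranked ratios of the members and is narrower than their range. A median that moved can therefore still lie among the members' ratios. The cause was not tested. With cells thinned to 2000 UMIs the medians were -0.11 (CD8 T, anti-PD1 against PBS), -0.90 (CD8 T, combination), 1.71 (CD8 T, fusion against combination), -0.47 (Treg, combination, 15 members), 0.23 (NK, anti-PD1, 18 members), 0.53 (macrophage, IL15 superagonist) and 1.39 (dendritic, fusion, 12 members), and in NK cells of fusion the median turned to -0.26 over 14 members from 1.33 over 28. By the mean over cells they were -0.81 (CD8 T, combination), 0.78 (CD8 T, fusion), 1.73 (CD8 T, fusion against combination), -0.33 (Treg, combination), 0.61 (macrophage, IL15 superagonist) and 1.17 (dendritic, fusion). With anti-PD1 in place of PBS the NK medians were -1.11 (IL15 superagonist), -1.10 (combination) and 0.45 (fusion). Keeping mixed cells gave -0.40 (Treg, combination), stricter gates 0.38 (dendritic, anti-PD1), a 5% mitochondrial limit 0.22 and 0.15 (macrophage, anti-PD1 and combination), and median scaling 0.13 (macrophage, combination). CD8 T shares at 3 UMIs in place of 5 were 46.4%, 42.4%, 25.5%, 28.4% and 67.4% in library order (PBS first, fusion last), and at 8 UMIs 15.8%, 16.7%, 4.61%, 6.02% and 34.2%. Of 464 member counts, 350 stayed within 1.5 times and 114 did not; at 2-fold NK cells had 12 members higher in anti-PD1 (4.28% of all genes) and 16 in fusion (8.81%), macrophages 12 in IL15 superagonist (219 of 10412 genes) and dendritic cells 9 in fusion (8.16%). Stricter gates could not be run for fusion dendritic cells, nor any setting for Treg cells of IL15 superagonist and fusion. No paired analysis was possible because each treatment has 1 library. Depth limits the rarer classes most: few NK and dendritic members kept 20 UMIs after thinning. Their medians before and after thinning are therefore not over the same members.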
